A study of Arabidopsis thaliana with 6 samples.

Results

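Arabidopsis thaliana seedlings of the wild type (WT) and of a line named for the protein ASI1 were examined by RNA immunoprecipitation and sequencing (RIP-seq). Transcripts of 44 genes were recovered in both RIP libraries of the ASI1 line and were not listed for WT. The genes were chosen from the measured values. Each was listed in the table of the ASI1 line, was absent from the table of WT, and reached 150 counts in each ASI1 RIP library. The 44 genes were taken from 4020 genes in the ASI1 table and from 6351 genes in either table. The gene of ASI1 itself was left out by rule, and it did not reach the minimum. A gene entered a table only with a value above 0 in at least 2 of its 3 libraries. A gene missing from the WT table therefore had a value above 0 in at most 1 of the 3 WT libraries, and which library that was is not analysed here.

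ASI1 carries an RNA recognition motif and a bromo-adjacent homology (BAH) domain and binds both RNA and chromatin. It works with the chromatin protein EDM2 on genes that carry heterochromatin inside an intron, where the complex favours transcripts that run on to the distal polyadenylation site. The best known genes of this kind are the histone demethylase gene IBM1 and the disease resistance gene RPP7. RIP-seq recovers the RNA crosslinked to a protein, and the input is the RNA before precipitation.

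Each line, ASI1 and WT, gave 2 RIP libraries and 1 input library. All groups were whole Col-0 seedlings of 14 d, grown at 22 °C in a 16 h day and 8 h night on 1% sucrose medium and crosslinked with 0.5% formaldehyde. An anti-Flag antibody was used, so ASI1 presumably denotes a line with Flag-tagged ASI1 and WT the untagged background, and the labels give neither the construct nor its promoter. Nothing in the labels marks the replicates as separate cultures, so the spread between them may be technical.

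Ribosomal RNA (rRNA) took most counts of every library, and counts outside rRNA made up 17.5% and 20.1% of the ASI1 RIP libraries and 0.534% of their input. For ASI1 they came to 448561 and 362058 RIP counts and 23810.4 input counts, and for WT to 23303.9 and 103549 RIP counts and 61644 input counts. Unless another scale is named, levels are CPM (counts scaled to a common total) computed from the counts outside rRNA of a library and called CPM outside rRNA. The 8 leaf markers examined were all listed in both tables, 2 of 5 root markers were, and 0 of 4 seed storage markers were. The summed level of the leaf markers was 9850 and 5390 CPM outside rRNA for the ASI1 RIP and 21447 for its input, and its part in the results was not tested. IBM1, RPP7, EDM2 and AIPP3, a partner of the ASI1 complex, were listed in both tables and so fell outside the group. CPL2, examined with the complex, was listed for ASI1 alone. It had 100 and 0 RIP counts and 4.11 input counts, so it missed the minimum. For ASI1, RPP7 had 1503 and 718 CPM outside rRNA in the RIP and 864 in the input, so its RIP libraries lay on both sides of the input, against 0 and 10.1 in the RIP and 351 in the input for WT. IBM1 had 0 and 291 CPM outside rRNA in the RIP and 302 in the input for ASI1, against 0 and 10.1 in the RIP and 50.1 in the input for WT.

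Some of the 44 genes have close copies or overlapping neighbours, which bears on what absence from the WT table means, and the shared sequences of 3 of them show its extent. AT1G17990, an FMN-linked oxidoreductase gene on the minus strand of chromosome 1, shares 100% of its 810 coding bases with AT1G18020, which lies nearby on the plus strand. A coding stretch of AT1G17990 (TAIR10.1, chr1:6192643-6192762, minus strand) and its match in AT1G18020 (chr1:6203265-6203384, plus strand) are identical. Capitals mark bases shared in matches of 31 bases, which here are all 120.
AT1G17990: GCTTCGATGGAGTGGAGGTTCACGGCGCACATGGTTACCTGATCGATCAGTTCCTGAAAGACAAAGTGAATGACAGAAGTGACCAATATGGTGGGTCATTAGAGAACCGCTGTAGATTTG
AT1G18020: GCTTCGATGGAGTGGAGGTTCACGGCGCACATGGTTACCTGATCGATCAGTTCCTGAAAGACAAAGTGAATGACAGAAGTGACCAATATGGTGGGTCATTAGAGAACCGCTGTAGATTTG

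The tables listed only one of this pair each. AT1G17990 had 351 and 384 RIP counts and 4.11 input counts for ASI1. AT1G18020 was not listed for ASI1, and it had 129.9 and 5.25 RIP counts and 17.5 input counts for WT. Reads from the shared sequence cannot be told apart, so how they were divided between AT1G17990 and AT1G18020 in each table is uncertain.

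The extensin gene EXT10 and the channel gene CNGC12 share part of their coding sequence with relatives. EXT10 encodes a hydroxyproline-rich wall protein built from repeats, and 34.8% of its 2070 coding bases were shared in matches of 31 bases with at least one of 5 other extensin or hydroxyproline-rich genes (EXT11, AT4G08410, AT5G06630, HRGP1 and EXT3). CNGC12 shares 51.2% of its 1950 coding bases with its neighbour CNGC11. The stretch of EXT10 richest in shared bases (TAIR10.1, chr5:2040852-2041031, minus strand) and a stretch of CNGC12 (chr2:19065955-19066104, plus strand) show this, with shared bases in capitals.
EXT10: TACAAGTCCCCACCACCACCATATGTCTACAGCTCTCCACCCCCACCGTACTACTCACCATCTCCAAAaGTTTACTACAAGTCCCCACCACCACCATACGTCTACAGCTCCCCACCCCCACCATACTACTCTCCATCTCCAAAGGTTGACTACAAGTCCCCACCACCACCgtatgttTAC
CNGC12: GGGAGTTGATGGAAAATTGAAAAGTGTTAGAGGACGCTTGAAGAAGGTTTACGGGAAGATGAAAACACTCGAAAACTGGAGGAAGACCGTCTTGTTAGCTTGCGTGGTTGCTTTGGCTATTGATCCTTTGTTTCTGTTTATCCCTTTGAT

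CNGC11 was listed for ASI1 alone, with 0 and 73.1 RIP counts and 2.06 input counts. EXT3 was listed in both tables, with 4306 and 2967 RIP counts and 139.6 input counts for ASI1, against 5.20 and 644 RIP counts and 199.9 input counts for WT. AT4G08410 was also listed in both and HRGP1 in neither. AT5G06630 (272.8 and 124.3 RIP counts) and EXT11 (62.7 and 0 RIP counts) were listed for ASI1 alone, as EXT10 was. The values of EXT10 thus depend on how reads of the repeats were divided among extensin genes. Of the 44 genes, 6 had at least 10% of the 31-base words of their exons at another place in the genome, namely AT1G17990, AT3G27990, CNGC12, EXT10, AT5G13200 and SPL8. Among the 253 genes outside rRNA with the same minimum that were listed in WT the number was 29 (11.5%, against 13.6% of the 44). Another annotated gene overlapped 14 of the 44 genes (31.8%), and in 13 of these it lay on the opposite strand. Among the 253 genes 29.6% had an overlap. Whether counting used strand is not given in the sources used here, so reads from such opposite-strand partners may not have been told apart. These 14 genes were NUA, AT1G59910, EXT10, XYL4, CNGC12, SIB2, AT2G43160, ATSYTF, AT3G27990, AT1G01448, AT5G27860, AT3G18930, SPL8 and, with a partner on its own strand alone, ARF19. CNGC12, EXT10, AT3G27990 and SPL8 were in both sets, so 16 genes had a repeated or overlapping sequence and 28 had neither.

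The group was a small part of the transcripts abundant in the ASI1 RIP. Outside rRNA, 297 genes reached this minimum, and 44 of them (14.8%) were absent from the WT table and 253 (85.2%) were listed there. Below that minimum 1653 of 3719 genes of the ASI1 table (44.4%) were absent from the WT table. The 44 genes held 2.65% and 3.21% of the counts outside rRNA in the ASI1 RIP and 1.1% in its input. In WT, 7 genes outside rRNA reached 150 counts in both RIP libraries, and 0 of these were absent from the ASI1 table. The WT RIP libraries were shallower, so this count is not set against the 44. A minimum of 400 CPM outside rRNA in both RIP libraries was also used in place of counts. With it, 39 of 271 genes of the ASI1 table were absent from the WT table, and 6 of 91 genes of the WT table were absent from the ASI1 table. Absence from a table still depends on the depth of its libraries. The WT RIP libraries held 23303.9 and 103549 counts outside rRNA, against 448561 and 362058 for ASI1. These shares are therefore not set against each other either.

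**Figure D1:**
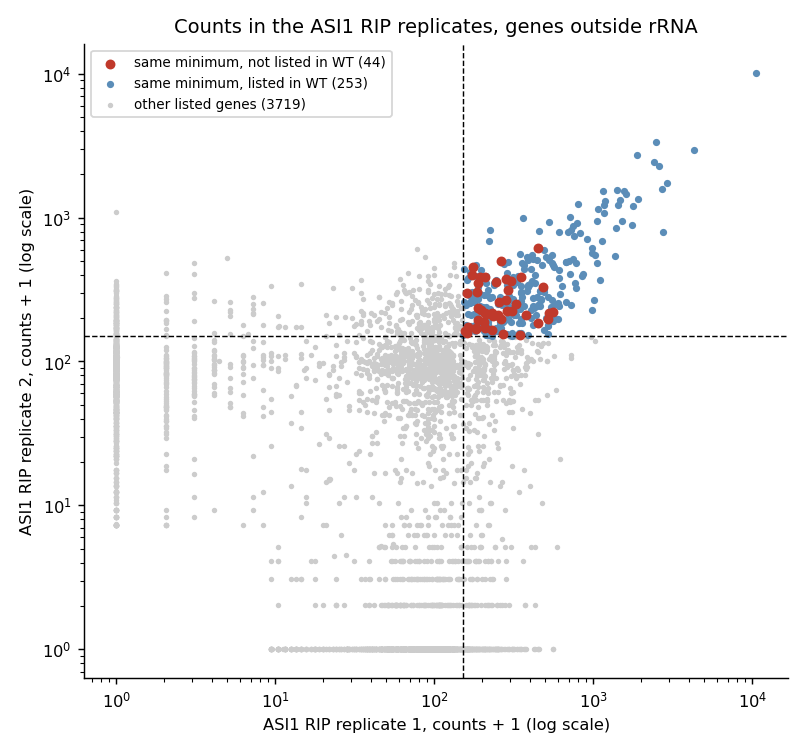
Counts plus 1 of every listed gene outside rRNA in ASI1 RIP replicate 1 (x axis, log scale) and replicate 2 (y axis, log scale), 1 point per gene, with dashed lines at the minimum of 150 counts. The 44 genes not listed in WT (red) fill the lower left of the upper right quadrant, up to 560.3 counts in replicate 1 and 617 in replicate 2, while the 253 genes listed in WT (blue) reach 10615 and 10144.

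By rule the 44 genes had at least 150 counts in each ASI1 RIP library. They ranged up to 560.3 counts in replicate 1 (median 239) and 617 in replicate 2 (median 221). The 253 genes listed in WT had medians of 350.2 and 281 counts. The genes just inside the minimum were AT3G10720, with 344 and 151 counts, AT3G27990, with 268 and 154, and SPL8, with 159.9 and 156. Just outside it were the arabinogalactan protein gene AGP7, with 323 and 148 counts, AT4G26190, with 147 and 192, and RGLG1, with 144 and 171. The choice of minimum set the size of the group, which was 129 genes at 100 counts, 22 at 200 and 4 at 300.

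The replicates differed by a median of 1.35-fold per gene over the 44 genes (CPM outside rRNA), against 1.39-fold over the 253. The widest gap was 3.24-fold, in PRA1.B2, and 34 of the 44 genes (77.3%) lay within 2-fold, against 83.4% of the 253. Replicate 2 was the higher one in 31 of the 44 genes (70.5%), against 58.1% of the 253. The minimum was set in counts, and replicate 2 held fewer counts outside rRNA (362058 against 448561). The same minimum was thus a higher level in replicate 2, which favoured genes that were higher there. Asking for the minimum in both libraries also limited the gap between them. Nothing is therefore read from these values.

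In the ASI1 input these genes had low counts, as did most listed genes. The median was 3.09 counts over the 44 genes and 9.26 over the 253 genes listed in WT, and 3.09 over all 4016 genes of the ASI1 table outside rRNA. The input held 0 counts of 6 of the 44 genes (13.6%), against 2.37% of the 253 and 6.95% of all 4016 genes. It held fewer than 10 counts of 35 (79.5%), against 50.6% of the 253 and 88.1% of all genes. A count of 0 in this input allows a level of up to 126 CPM outside rRNA (3 counts). The rule itself asked for at most 1 value above 0 in WT, so these input counts are a description and no test was made.

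**Figure D2:**
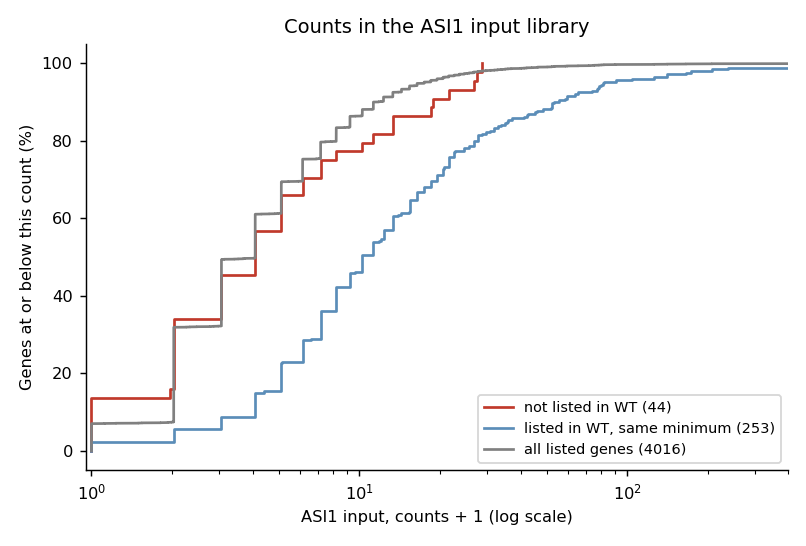
Cumulative share of genes (y axis, percent) by their counts plus 1 in the ASI1 input (x axis, log scale, drawn up to 400) for the 44 genes not listed in WT, the 253 listed in WT with the same minimum, and all 4016 genes outside rRNA. The 44 genes follow the curve of all genes at low counts and end at 27.8 counts, while the 253 genes lie to the right.

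For 36 of the 44 genes both ASI1 RIP libraries lay above the ASI1 input in CPM outside rRNA. The same was true of 23.6% of all 4016 genes outside rRNA and of 71.5% of the 253. Since the rule asked for high RIP counts, nothing is read from this. Both RIP libraries lay below the input in 5 genes, EXT10, AT2G43160, NUA, AT2G16940 and AT4G19530, and on both sides of it in XYL4, ATSYTF and SADHU1-2. With the deposited CPM, whose totals hold rRNA, all 44 genes lay above the input in both RIP libraries (background 47.2%). With the TMM-scaled totals of the edgeR fit the number was 35 (background 20.3%). Positions relative to the input are given on the scale outside rRNA, and for these 8 genes they changed with the deposited CPM.

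**Figure D3:**
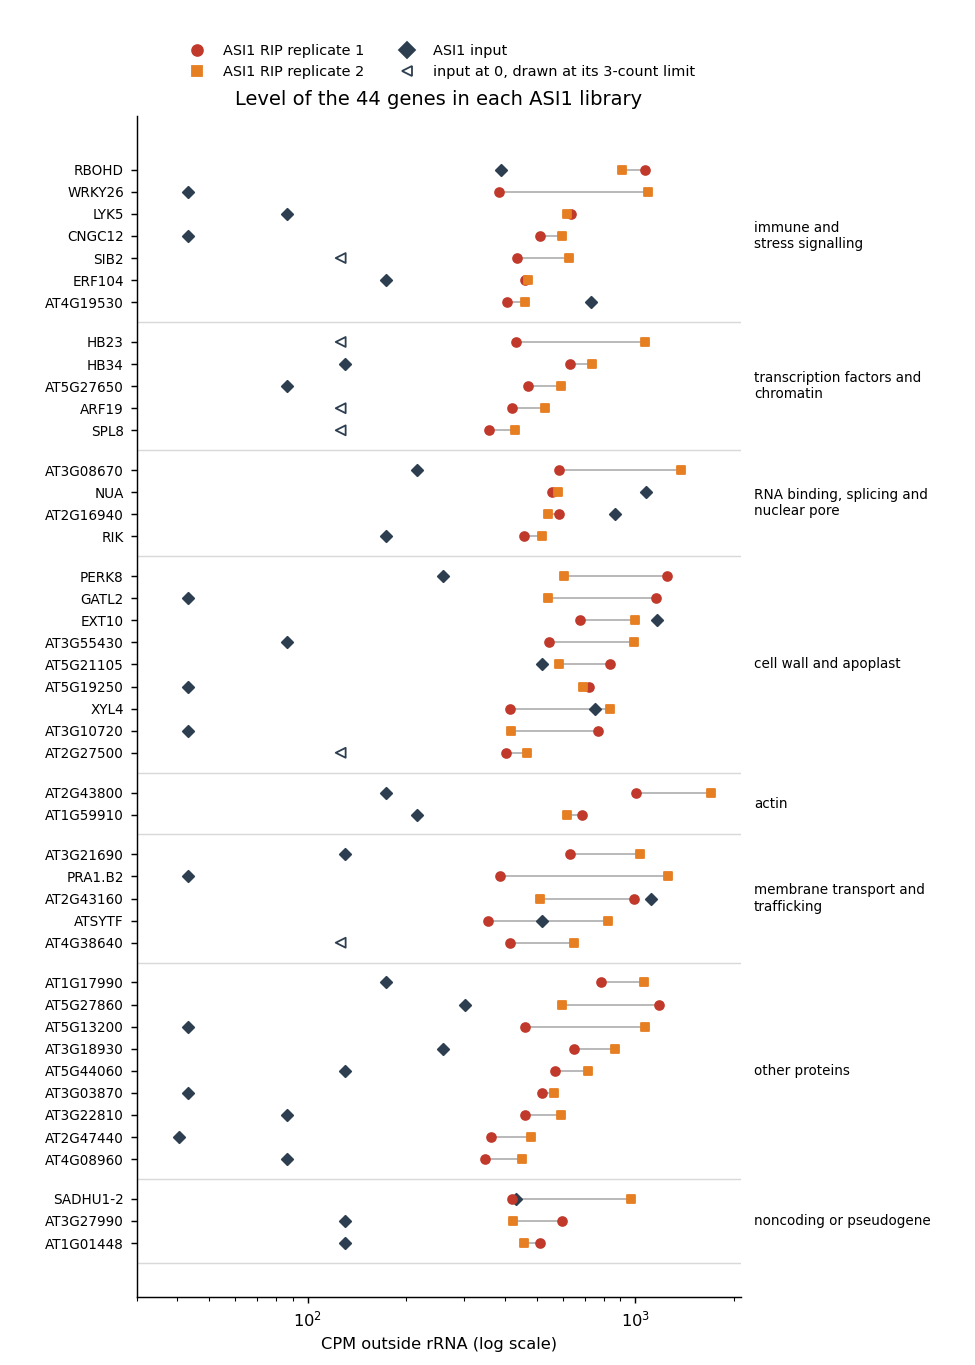
Level of each of the 44 genes in ASI1 RIP replicate 1 (circles), ASI1 RIP replicate 2 (squares) and the ASI1 input (diamonds), in CPM outside rRNA on a log axis, with genes grouped by role. Open triangles stand for the 6 genes at 0 in the input and are drawn at the limit of 126 CPM that 3 counts give. The input lies left of both RIP libraries in 36 genes and right of both in 5.

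Immune and stress signalling genes numbered 7 by roles assigned by hand with the values known. Of these, 6 lay above the input in both ASI1 RIP libraries, as did 71.5% of the 253 genes listed in WT. This and the following roles were given to genes of the group alone, so they have no share among other genes. Since the rule asked for high RIP counts, nothing is read from how many genes of a role lay above the input. RBOHD, the NADPH oxidase of the immune oxidative burst, had 479 and 329 counts in ASI1 RIP replicates 1 and 2 (RIP counts) and 9.26 counts in the ASI1 input (input counts). Its levels were 1067 and 909 CPM outside rRNA for the RIP and 389 for the input. Both RIP libraries thus lay above the input, at 2.75 and 2.34 times its level, and the pooled ratio was 2.56 (95% interval 1.38 to 5.79, exact conditional binomial, counting error only). LYK5, a receptor kinase for chitin, had 284 and 225 RIP counts and 2.06 input counts. Its RIP libraries differed little from each other, at 7.34 and 7.18 times the input (pooled ratio 7.27, interval 2.06 to 61.9).

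The channel gene CNGC12, whose fusion with CNGC11 in the cpr22 mutant activates defence, had 229 and 216 RIP counts and 1.03 input counts, 11.8 and 13.8 times the input level. WRKY26, a WRKY transcription factor gene with a role in heat tolerance, had 172 and 396 RIP counts and 1.03 input counts. Its 2 RIP libraries lay apart, at 385 and 1093 CPM outside rRNA, and both were above the 43.2 of the input. ERF104, an ethylene response factor regulated by the kinase MPK6 in flagellin signalling, had 207 and 170.2 RIP counts and 4.11 input counts, 2.67 and 2.72 times the input level. SIB2, a VQ-motif protein that binds WRKY33, had 195 and 226 RIP counts and 0 input counts, so its RIP levels were at least 3.46-fold and at least 4.96-fold higher than the 3-count limit of the input.

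AT4G19530, a disease resistance gene of the TIR-NBS-LRR class, had 182 and 166 RIP counts and 17.5 input counts. It was the only gene of these 7 with both RIP libraries below the input, at 406 and 459 CPM outside rRNA for the RIP and 734 for the input. The pooled ratio was 0.585 (interval 0.37 to 1.04), which takes in equal levels.

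Transcription factor and chromatin genes numbered 5, all above the input in both ASI1 RIP libraries, and 3 of them were at 0 in the input. HB23 and HB34 encode zinc finger homeodomain proteins. HB23 had 193 and 388 RIP counts and 0 input counts, at least 3.42-fold and at least 8.52-fold higher than the input limit. HB34 had 283 and 267 RIP counts and 3.09 input counts, at 4.87 and 5.70 times the input level. The replicates of HB34 lay close together and those of HB23 differed 2.49-fold.

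ARF19, an activator of auxin-responsive genes in lateral root formation, had 188 and 192 RIP counts and 0 input counts. SPL8, a squamosa promoter-binding factor of anther development, had 159.9 and 156 RIP counts and 0 input counts. Their RIP levels were at least 3.33-fold and at least 4.21-fold higher than the input limit for ARF19, and at least 2.83-fold and at least 3.41-fold higher for SPL8. AT5G27650, which encodes a protein of the Tudor/PWWP/MBT superfamily of chromatin readers, had 210.1 and 214 RIP counts and 2.06 input counts, 5.42 and 6.85 times the input level.

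Genes of RNA binding and the nuclear pore numbered 4, of which 2 lay above the input in both ASI1 RIP libraries and 2 lay below it. NUA, the nuclear pore anchor needed for mRNA export, had 249.8 and 209.9 RIP counts and 25.7 input counts. Both RIP libraries lay below the input, at 557 and 579.8 CPM outside rRNA for the RIP and 1079.7 for the input, and the pooled ratio was 0.525 (interval 0.35 to 0.804). AT2G16940, which encodes a CC1-like splicing factor, had 262 and 196 RIP counts and 20.6 input counts, and also lay below the input in both, at 0.677 and 0.628 times its level (interval of the pooled ratio 0.415 to 1.05).

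AT3G08670, a serine/arginine repetitive matrix-like gene, had 262 and 497 RIP counts and 5.14 input counts. Its RIP libraries differed 2.35-fold and were 2.71 and 6.36 times the input level. RIK encodes a KH-domain RNA-binding protein named for its interaction with the maize protein RS2. It had 205 and 188 RIP counts and 4.11 input counts, 2.64 and 3.01 times the input level.

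Cell wall and apoplast genes numbered 9 by roles assigned by hand with the values known, and 7 of them lay above the input in both ASI1 RIP libraries. GATL2, a galacturonosyltransferase-like gene, had 519 and 195 RIP counts and 1.03 input counts. Its levels of 1156 and 539 CPM outside rRNA in the RIP libraries were 26.8 and 12.5 times the 43.2 of the input, with a pooled ratio of 20.4. The interval of that ratio ran from 3.75 to 829, with only 1.03 counts in the input. AT5G19250, which encodes a GPI-anchored glycoprotein, had 324 and 251 RIP counts and 1.03 input counts, at 16.7 and 16.0 times the input level.

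PERK8, a proline-rich extensin-like receptor kinase gene, had the most counts of any of the 44 genes in replicate 1. It had 560.3 and 219 RIP counts and 6.17 input counts, 4.82 and 2.34 times the input level. The glycosyl hydrolase family 17 gene AT3G55430 had 245 and 358 RIP counts and 2.06 input counts, 6.31 and 11.5 times the input level. AT3G10720, annotated in the invertase and pectin methylesterase inhibitor superfamily, had 344 and 151 RIP counts and 1.03 input counts, and AT2G27500, a glycosyl hydrolase gene, had 181 and 169 RIP counts and 0 input counts.

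The other 3 wall genes stood near the input. EXT10, whose repeats are shared with other extensin genes, had 303 and 361 RIP counts and 27.8 input counts, the highest input count of the 44 genes. Both RIP libraries lay below the input, at 0.58 and 0.856 times its level (interval of the pooled ratio 0.477 to 1.06). XYL4, a beta-xylosidase gene, had 186 and 303 RIP counts and 17.9 input counts, and its RIP libraries lay on both sides of the input, at 415 and 836 CPM outside rRNA for the RIP and 751 for the input. AT5G21105, an L-ascorbate oxidase gene, had 374 and 211 RIP counts and 12.3 input counts, at 1.61 and 1.12 times the input level (interval of the pooled ratio 0.814 to 2.79).

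Formins, which nucleate actin filaments, gave 2 genes. AT2G43800 had 451 and 617 RIP counts and 4.11 input counts. Its levels were 1004 and 1705 CPM outside rRNA for the RIP and 173 for the input, and its pooled ratio was 7.62 (interval 3.05 to 28.8). AT1G59910 had 308 and 223 RIP counts and 5.14 input counts, with a pooled ratio of 3.04 (interval 1.33 to 9.66), and it overlaps AT1G59900 on the opposite strand.

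Genes of membrane transport and trafficking numbered 5, and 3 lay above the input in both ASI1 RIP libraries. AT3G21690, a MATE efflux carrier gene, had 282 and 373 RIP counts and 3.09 input counts. PRA1.B2, a prenylated Rab acceptor gene, had 174 and 454 RIP counts and 1.03 input counts. It had the widest gap between replicates, at 387 and 1255 CPM outside rRNA, both above the 43.2 of the input. AT4G38640, annotated as a choline transporter gene, had 186 and 235 RIP counts and 0 input counts, at least 3.29-fold and at least 5.15-fold higher than the input limit.

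AT2G43160, of the ENTH/VHS family of vesicle coat adaptors, had 445 and 185 RIP counts and 26.5 input counts, and both RIP libraries lay below the input at 993 and 511 CPM outside rRNA for the RIP and 1115 for the input. One of its introns holds the lncRNA gene AT2G09425 on the opposite strand, which was listed in neither table. The C2-domain gene ATSYTF had 159 and 299 RIP counts and 12.3 input counts, with RIP libraries on both sides of the input.

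The 9 remaining protein-coding genes all lay above the input in both ASI1 RIP libraries. AT5G27860, an uncharacterized gene, had 529 and 216 RIP counts and 7.2 input counts. AT5G13200, which encodes a GRAM-domain protein, had 206 and 386 RIP counts and 1.03 input counts, at 10.6 and 24.7 times the input level. AT3G03870, also uncharacterized, had 233 and 205 RIP counts and 1.03 input counts, at 12 and 13.1 times the input level. These 2 genes thus shared an input count of 1.03 and differed in how closely their RIP replicates lay.

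AT3G18930, a RING/U-box gene, had 292 and 314 RIP counts and 6.17 input counts. AT5G44060, annotated as an embryo sac development arrest gene, had 255 and 259 RIP counts and 3.09 input counts. AT3G22810, annotated as an auxin canalization gene, had 207 and 215 RIP counts and 2.06 input counts. In all 3 genes the replicates lay within 1.34-fold of each other. The tetratricopeptide repeat gene AT2G47440 had 163 and 173 RIP counts and 0.966 input counts, and AT4G08960, a phosphatase activator gene, had 156 and 163 RIP counts and 2.06 input counts.

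The group held 2 lncRNA genes (4.55%, against 0.395% of the 253 and 0.448% of all 4016 genes). It also held 1 pseudogene (2.27%, against 1.58% and 0.971%). With so few genes these shares are a description. AT3G27990, an lncRNA gene, had 268 and 154 RIP counts and 3.09 input counts, at 4.61 and 3.27 times the input level. One of its transcripts has an intron of 3480 bases (TAIR10.1, chr3:10393201-10396680, minus strand) that holds the protein-coding gene AT3G27980 on the other strand, which was listed in neither table. Of the 31-base words of its exons, 42.0% occur elsewhere in the genome. The lncRNA gene AT1G01448 had 229 and 165 RIP counts and 3.09 input counts, at 3.94 and 3.52 times the input level, and it overlaps AT1G01450 on the opposite strand. The pseudogene SADHU1-2, of the Sadhu family of retroposons, had 188 and 349.8 RIP counts and 10.3 input counts, at 0.971 and 2.24 times the input level, so its replicates lay on both sides of the input.

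Levels per kilobase of exon, which allow genes to be compared, ran over the 44 genes from 83.8 CPM outside rRNA per kb in NUA to 943 in AT5G27860 (mean of the ASI1 RIP libraries). After AT5G27860 came AT5G19250 with 762, PRA1.B2 with 719 and SIB2 with 635 CPM outside rRNA per kb. The order of these 4 genes rests on means of 2 libraries that differed up to 3.24-fold. AT5G27860 and SIB2 also overlap other annotated genes, so their levels may hold reads of those genes.

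The fit across all genes called none of the 44. Of 3930 genes tested with edgeR's quasi-likelihood test, 0.0509% were called higher (2 genes) and 0.28% lower (11 genes) for the ASI1 RIP over its input, where a call needed an adjusted p (Benjamini-Hochberg) under 0.05 and a log2 fold beyond 1 in size. Called genes among the 44 numbered 0. An unadjusted p under 0.05 was found for 1 of them (HB23), against 96 of all 3930 genes tested. DESeq2 also called 0, with 1 at an unadjusted p under 0.05, against 40 of all 4020 genes. It gave no adjusted p for most of the 44 genes, HB23 among them, so it could not call those. Of all 4020 genes, with or without an adjusted p, DESeq2 called 0.174% higher and 0.199% lower. With DESeq2 size factors in the edgeR fit the shares were 0.204% higher and 0.305% lower, with totals without rRNA 0.204% and 0.229%, with no filter on low counts 0.0995% and 0.323%, and with no abundance trend 0% and 0%, and none of these settings called any of the 44. With DESeq2 size factors 7 of the 44 had an unadjusted p under 0.05 (97 of all genes). With totals without rRNA it was 9 (100 of all), with no filter 2 (99) and with no abundance trend 0 (0). In the authors' deposited table no gene (0%) had an FDR under 0.05. There 1 of the 44, again HB23 (0.0490), had a p under 0.05, against 11 of all 4020 genes. The adjusted p of HB23 was 0.895 with edgeR. Among genes seen in the input the fitted log2 fold ran from -1.44 (SE 1.12) in NUA to 3.83 (SE 1.99) in GATL2. The contrast is the one the rule used, so these values are a description. The median fitted log2 fold was 1.95 over the 44 genes and -0.06 over all genes tested. With the genes at 0 in the input set to their 3-count bound, the medians were 1.58 and -0.12. The fit had 1 residual degree of freedom and 1 input library, which was assumed to vary like the RIP libraries, and its common dispersion was 3.30. With this spread few genes of the whole table were called, so a missing call says nothing about a gene of the 44.

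The WT libraries give only a bound. If listing alone kept these genes out of the WT table, at least 1 of the WT RIP libraries had 0 counts of each of the 44 genes. A count of 0 allows up to 129 CPM outside rRNA in WT RIP replicate 1 and 29.0 in replicate 2 (3 counts each, counting error only). The minimum of 150 counts by itself put every level of the 44 genes in the ASI1 RIP above both limits, and the lowest was 347 CPM outside rRNA in AT4G08960. Zeros were common in these shallow WT libraries: of the 253 genes listed in WT, 79 (31.2%) had 0 counts in WT RIP replicate 1, 18 (7.11%) in replicate 2, and 97 (38.3%) in at least 1 of them. Only 1 of the 253 had 0 counts in the WT input. To be listed, a gene needed a value above 0 in at least 2 of the 3 WT libraries. The 97 genes with a 0 in the RIP could thus not be at 0 in the input. These rates are limited by the listing, so nothing is read from them.

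Since ASI1 acts on genes with long introns that carry heterochromatin, gene structure was compared with annotation that the rule did not use. The median gene length was 2783.5 bases over the 44 genes, 2861 over the 253 genes listed in WT and 2827 over all 4016 genes outside rRNA. The median longest intron was 379, 326 and 309 bases in the same order, and the median exon number 3.5, 4 and 5. An intron of at least 1000 bases was annotated in 4 of the 44 genes (9.09%), against 6.72% of the 253 and 3.96% of all genes. These 4 were AT3G27990, AT5G21105 with 1895 bases, AT4G19530 with 1275 bases and RIK with 1204 bases. Another gene lay inside an intron of 2 of the 44 genes (4.55%), AT3G27990 and AT2G43160, against 1.98% of the 253 and 0.896% of all genes. Introns were taken from any annotated transcript of a gene. In AT3G27990 the exons of all transcripts together cover 5171 of 5665 bases, so most of its longest intron is exon in other transcripts. With so few genes the shares are given as a description. No intron was annotated in 8 of the 44 genes (18.2%), against 13.4% of the 253 and 14.0% of all genes. The median GC content of the exons was 42.0% over the 44 genes, 43.0% over the 253 and 42.2% over all genes.

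**Figure D4:**
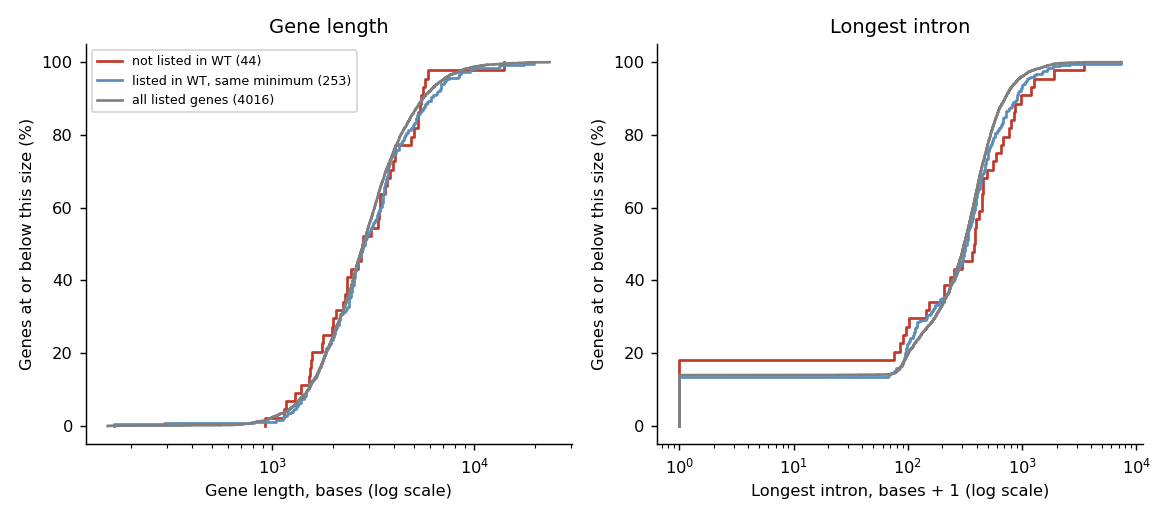
Cumulative share of genes (y axes, percent) by gene length (left, bases, log scale) and by longest intron (right, bases plus 1, log scale) for the 44 genes not listed in WT, the 253 listed in WT with the same minimum, and all 4016 genes outside rRNA. The curves of gene length run close together. The upper quartile of the longest intron was 605 bases for the 44 genes, 502 for the 253 and 478 for all genes. The curve of the 44 genes ends at 3480 bases, in at least 1 transcript of an lncRNA gene. Those of the 253 and of all genes reach 7384.

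Grouped by words in the annotated products, the 44 genes fell into 12 classes, set beside the 253 genes listed in WT. Metabolic enzymes made up 11.4% of the 44 genes, 14.6% of the 253 and 18.1% of all. In the same order, cell wall and secreted proteins made up 9.09%, 7.91% and 5.05%, and chromatin and transcription 6.82%, 8.70% and 9.64%. Stress and hormone response took 6.82% (3 genes), 2.37% and 1.67%, and RNA binding and processing 4.55% (2 genes), 5.14% and 3.78%. Ubiquitin and protein degradation took 2.27% (1 gene), 5.14% and 4.78%, and noncoding genes and pseudogenes 6.82% (3 genes), 4.35% and 2.12%. Cytoskeleton and cell division genes, here the 2 formins, were 4.55% of the 44 genes, 0.395% of the 253 (1 gene) and 1.37% of all genes. These classes hold 1 to 5 genes each, apart from 15 genes (34.1%) without a class, and no test was made.

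Promoters of the protein-coding genes were searched on both strands in the 250 bases upstream of the annotated start. The search took short motifs of stress and hormone response and the TATA box. The core of the W-box, TTGAC, to which WRKY factors bind, was present in 18 of 41 promoters (43.9%), against 44.9% of all 27443 promoters of the same length. The TATA box letters TATAAA were present in 17 (41.5%), against 47.3%. The G-box CACGTG was present in 3 (7.32%), against 6.49%, the auxin response element TGTCTC in 3 (7.32%), against 10.9%, and the GCC-box core GCCGCC in 1 (2.44%), against 1.87%. A match is a description of the letters in this window, and the shares lay near those of all promoters.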

How the data were processed

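RIP-seq was analysed from 2 tables, 1 per genotype. The authors deposited expected counts (estimated read counts that need not be whole), CPM on all listed counts, a log2 fold change of RIP over input, a mean log2 CPM, a p-value and an FDR per gene, per the file headers. The submitters' processing notes name Salmon 0.10.2, STAR 2.6.0c and edgeR without their roles. The genome build and the use of strand are not stated.

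Every gene identifier (100%) was found in TAIR10.1, which supplied names, structures, coordinates and sequences. Levels were recomputed as CPM outside rRNA. For a count of 0, the limit was 3 counts. Intervals are 95% exact conditional binomial intervals and, like the limits, cover counting error only. Expected counts were rounded and fitted with edgeR 4.0.16 (quasi-likelihood, TMM, filterByExpr, Benjamini-Hochberg) in R 4.3.3 with limma 3.58.1, on the 2 ASI1 RIP libraries and 1 input. DESeq2 1.42.0 was an alternative, with other scalings, filters, minima and libraries left out. The fit was tested on simulated data, where it recovered none of the changed genes at the spread of these libraries and nearly all at a low spread. Tables and plots were made in Python 3.11.15 (matplotlib 3.10.9, pandas 2.3.3, numpy 2.4.6, scipy 1.17.1).

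The 44 genes, the lists and the roles were chosen with earlier results of these data known. The rule for named genes took the 15 highest mean RIP levels, the 8 highest lower ratios to the input, the 5 highest input levels, the 3 highest genes of each product class with at least 3 genes, all noncoding genes, the 3 genes nearest the minimum on either side, and genes with an intron of at least 1000 bases or a gene inside an intron. It gave 37 of the 44 genes, and the other 7 (AT1G59910, AT2G27500, SIB2, ATSYTF, AT4G38640, AT5G27650 and AT5G44060) were added after their values were seen.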

Additional observations from a re-analysis of the deposited data

How the results depend on the processing

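No paired analysis was possible because the ASI1 RIP libraries and their single input share fewer than 2 replicate numbers. For ASI1 RIP over input, genes called higher numbered 2, and 8 with DESeq2 size factors, 8 with totals without rRNA, 4 with no filter on low counts, 7 with DESeq2 and 0 with no abundance trend. Genes called lower numbered 11, 0 with no abundance trend, and between 8 and 13 with the other alternatives. None of these settings called any of the 44 genes, most of which had no adjusted p with DESeq2. The number of genes in the group was 129, 22 and 4 with minima of 100, 200 and 300 counts, 39 with a minimum of 400 CPM outside rRNA (chosen in place of counts), 192 and 201 with the minimum in 1 RIP replicate alone, and 28 without overlapping or repeated genes. The last setting, and all settings for the number of genes above the input, were chosen after seeing the data. That number, 36 of 44, was 44 with the deposited CPM, 35 with TMM-scaled totals, 36 to 39 with 1 RIP replicate left out, and 25 of 28 without overlapping or repeated genes. The median log2 fold of 1.95 over the 44 genes was 2.26 with DESeq2 size factors, 2.42 with totals without rRNA, 2.29 with DESeq2, and 1.87 to 2.22 with 1 RIP replicate left out. The median of all genes was -0.06, 0.25 with DESeq2 size factors, 0.41 with totals without rRNA, -0.69 without ASI1 RIP replicate 1 and -0.25 without replicate 2. Across 8 settings the log2 fold was above 0 in 35 of the 44 genes and below 0 in 6, and its sign varied in SADHU1-2, ATSYTF and AT5G21105. The cause of these shifts was not tested. Depth limits the ratios to the ASI1 input, where the median of the 44 genes was 3.09 counts, and the WT bound, since WT RIP replicate 1 held 23303.9 counts outside rRNA.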
